A study of Mus musculus with 62 samples.

Results

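The levels of 6 transcripts of the red cell lineage, out of the 47643 gene symbols in the table, were followed through mouse liver during melanoma cachexia. They were chosen by symbol: the adult alpha globin copies Hba-a1 and Hba-a2, the adult beta globin copies Hbb-bs and Hbb-bt, the erythroid haem synthesis enzyme Alas2, and the red cell anion exchanger Slc4a1. Levels were deposited as TPM, the length-scaled share of a gene among all transcripts, which sums to 1e+06 in each library, and 62 liver libraries were measured.

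The study followed the liver over the weeks in which a cachectic tumour develops. CAC mice received melanoma cells that cause cachexia (22 libraries), NCAC mice received melanoma cells that do not (20 libraries), and Con mice had a mock injection (20 libraries). Livers were taken 2, 4, 6 and 8 weeks after injection, with 5 libraries in each group and 7 in CAC at 8 weeks, and each library was taken as 1 animal. All mice were female and 2 months old. The sample labels give the strain as C57BL/6J and the study's design text as NCI Ath/nude, which could not be settled here. The extraction protocol also mentions a time point of the lung carcinoma line LLC, which no group in the labels received. Hepatocyte markers fitted the labelled tissue, since 7 such genes summed to between 108102 and 163403 TPM in all 62 libraries. The table gives no read counts, so the depth behind each value is unknown.

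Haemoglobin is built from alpha and beta globin chains that each hold a haem group, and red cell precursors make both chains and haem in large amounts. Alas2 starts haem synthesis in those precursors, while other cells, hepatocytes among them, use the related enzyme Alas1. The beta copies Hbb-bs and Hbb-bt belong to the s haplotype, which C57BL/6 mice carry. Reticulocytes, the youngest red cells in the blood, still hold globin mRNA and lose it as they mature. The fetal liver makes red cells, a task that passes to bone marrow and spleen in adult mice. In whole liver tissue, fewer red cell precursors or reticulocytes and less RNA in each of them cannot be told apart.

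Each globin chain is encoded by a pair of near-identical copies, and the coding bases that separate the copies are shown because the values of Hba-a1 against Hba-a2, and of Hbb-bs against Hbb-bt, are read below as separate copies. Their untranslated regions and introns were not compared. In the GENCODE annotation of GRCm38 (mm10), Hba-a1 lies at chr11:32283511-32284465 and Hba-a2 at chr11:32296489-32297298, both on the plus strand, and Hbb-bs at chr7:103826534-103828096 and Hbb-bt at chr7:103812524-103813996, both on the minus strand. The coding sequences of Hba-a1 and Hba-a2 are 429 bases long and differ at 1 base, C381T, counted from the first base of the start codon with the base of Hba-a1 first. Those of Hbb-bs and Hbb-bt are 444 bases long and also differ at 1 base, C417T, with the base of Hbb-bs first. The stretches below run 5′ to 3′ along the coding strand and hold that base, in capitals, with 25 bases on either side.
Hba-a1: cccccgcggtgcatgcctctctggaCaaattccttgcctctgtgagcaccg
Hba-a2: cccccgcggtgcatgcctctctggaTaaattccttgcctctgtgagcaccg
Hbb-bs: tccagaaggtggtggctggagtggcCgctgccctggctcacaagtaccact
Hbb-bt: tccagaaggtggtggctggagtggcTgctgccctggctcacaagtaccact

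The promoters are shown because the tested members other than Hba-a2 moved together across libraries. A link between these sequences and the levels was not tested. RefSeq promoter windows (GRCm38.p6) were found for 5 members, and the 220 bases before the start annotated by RefSeq are printed 5′ to 3′ in the direction of transcription. The GENCODE genes start further upstream than the RefSeq ones, so that the end of each printed window nearest the start lies within the GENCODE gene. Capitals mark every match on either strand to GATAA (the core of the site read by GATA factors), CACCC (read by Klf1 and relatives), CCAAT or TATAA, and an opposite-strand match shows the reverse complement. At the start of the Alas2 window TATAA on either strand overlaps, and in Hbb-bt CCAAT lies directly beside its opposite-strand match. The windows are chr11:32283452-32283671 (plus strand) for Hba-a1, chr7:103827929-103828148 (minus strand) for Hbb-bs, chr7:103813924-103814143 (minus strand) for Hbb-bt and chrX:150547197-150547416 (plus strand) for Alas2.
Hba-a1: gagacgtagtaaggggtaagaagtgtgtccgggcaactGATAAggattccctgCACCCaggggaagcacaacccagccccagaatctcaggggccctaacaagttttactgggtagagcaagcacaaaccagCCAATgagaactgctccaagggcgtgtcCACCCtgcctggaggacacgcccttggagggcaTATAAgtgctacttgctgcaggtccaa
Hbb-bs: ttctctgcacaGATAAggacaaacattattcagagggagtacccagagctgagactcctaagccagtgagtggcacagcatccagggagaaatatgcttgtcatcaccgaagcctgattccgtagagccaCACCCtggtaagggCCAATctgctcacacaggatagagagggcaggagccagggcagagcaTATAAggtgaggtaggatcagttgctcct
Hbb-bt: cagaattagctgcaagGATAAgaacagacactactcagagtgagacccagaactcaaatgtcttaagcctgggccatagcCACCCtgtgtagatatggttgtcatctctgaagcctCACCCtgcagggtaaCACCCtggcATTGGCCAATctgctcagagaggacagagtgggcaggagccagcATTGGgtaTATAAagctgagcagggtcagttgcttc
Alas2: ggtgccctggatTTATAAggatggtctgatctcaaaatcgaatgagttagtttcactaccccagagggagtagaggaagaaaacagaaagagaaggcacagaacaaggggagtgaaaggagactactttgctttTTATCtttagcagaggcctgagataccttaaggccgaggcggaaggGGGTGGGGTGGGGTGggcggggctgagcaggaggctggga

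Over the full 250-base windows, the 4 globin promoters each held all 4 motifs, a combination found in 0.968% of the 32851 promoters in the RefSeq table. Singly, GATAA was found in 22.6% of those promoters, CACCC in 52%, CCAAT in 33.8% and TATAA in 22.8%. The Alas2 window held all of them but CCAAT. The Hba-a2 window is not printed, since it was identical to that of Hba-a1 over all 247 bases compared. The levels of these copies still ran together only weakly across libraries (Pearson's r = 0.36). The windows of Hbb-bs and Hbb-bt were 51% identical when aligned without gaps at the best single offset. That value can understate their likeness. The same-strand CCAAT began at -76 in Hbb-bs and -75 in Hbb-bt, but GATAA at -209 and -204. An alignment with gaps was not made. These matches describe the letters of the windows and were not tested for binding. The motifs were picked, not drawn at random, and the alpha windows repeat each other, so the 0.968% is no test of rarity.

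Globin transcripts were present in all 62 liver libraries. The 4 globin copies together made up between 0.00495% and 1.6% of all TPM, with a median of 0.198%. Hba-a1 had a median of 841 TPM over the libraries and Hbb-bs one of 802 TPM, against 115 TPM for Hba-a2 and 135 TPM for Hbb-bt. Hbb-bs exceeded Hbb-bt in all 62 libraries, and Hba-a1 exceeded Hba-a2 in 55 of them. Alas2 had a median of 12.2 TPM, and Slc4a1, whose protein band 3 is the main membrane protein of mature red cells, one of 0.0836 TPM. Slc4a1 reached 1 TPM in 1 library only.

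**Figure D1:**
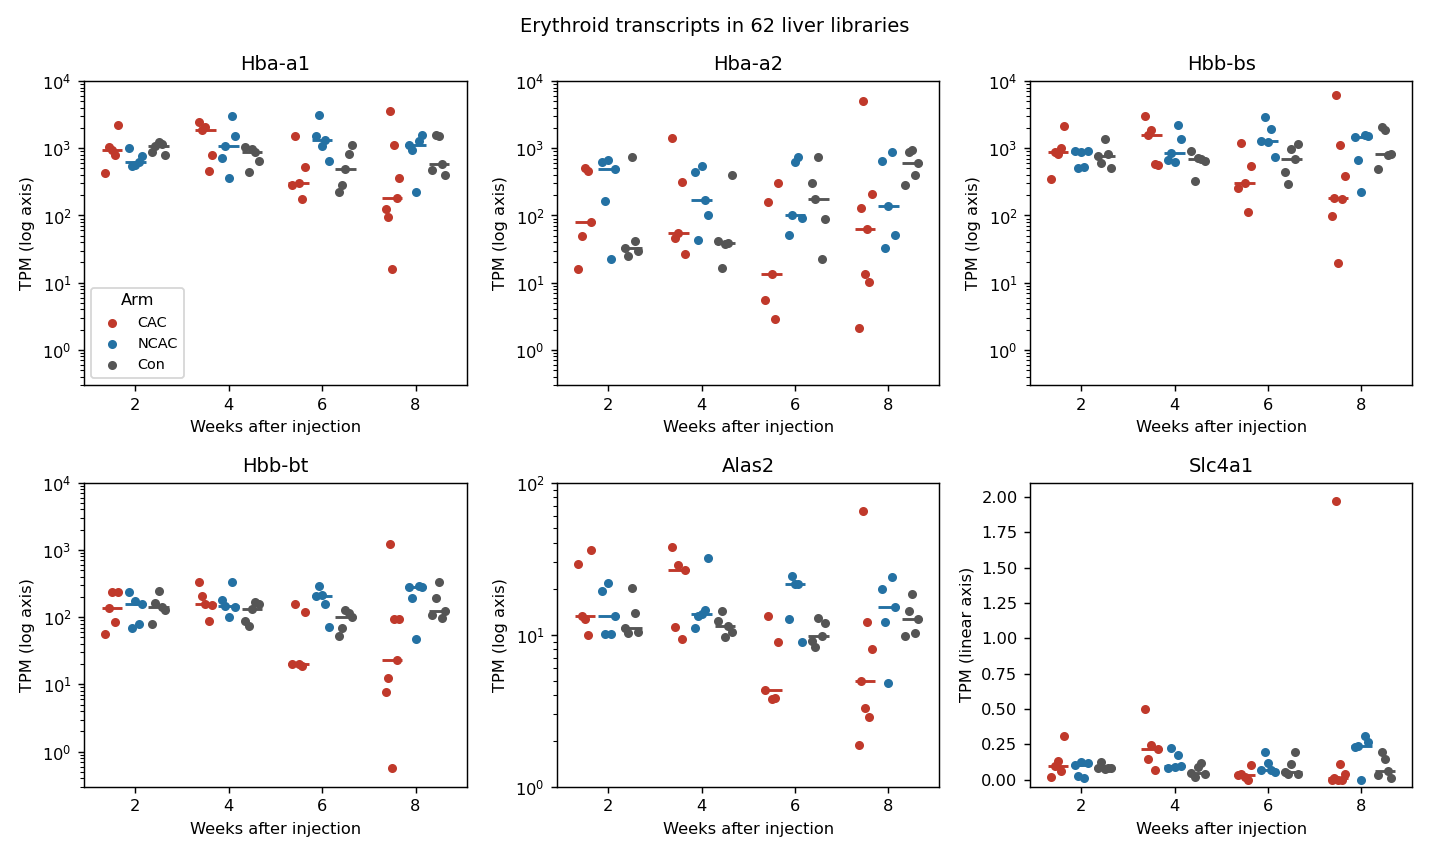
Level of each of the 6 transcripts (TPM, log axis except for Slc4a1) against weeks after injection, with 1 point for each library and a bar at the median of each group, for CAC, NCAC and Con livers. For Hbb-bs, CAC libraries at 8 weeks run from 19.3 to 6171 TPM, against 492 to 2053 TPM in Con libraries of that week.

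The spread of the globins was widest in CAC livers at 8 weeks. The summed globin level of the highest library over that of the lowest was 324-fold in CAC livers at 8 weeks, or 48.6-fold without replicate 3 of that group, and 9.67-fold at 6 weeks, 4.94-fold at 4 weeks and 5.46-fold at 2 weeks in the same arm. It was between 2.24-fold and 6.37-fold in the 4 NCAC groups and between 2.37-fold and 3.45-fold in the 4 Con groups. These ratios are descriptions, with no test of the spread.

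By group median, the summed globin level in CAC livers was 2334 TPM at 2 weeks, 3686 TPM at 4 weeks, 642 TPM at 6 weeks and 420.4 TPM at 8 weeks. In NCAC livers the medians were 2284, 2131, 3157 and 3393 TPM over the same weeks, and in Con livers 1880.4, 1854, 1651 and 1947 TPM. CAC at 4 weeks was thus the highest and CAC at 8 weeks the lowest of the 12 group medians, with CAC at 6 weeks next to lowest. No neighbouring pair of groups in that order had separate ranges, for the globin sum, the alpha and beta pairs, Alas2 or any single copy.

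The 20 Con livers of all weeks spanned 819 to 4706 TPM of summed globin. Below all of them lay 4 of 7 CAC livers at 8 weeks and 3 of 5 at 6 weeks, but 0 of 5 at 2 weeks and 0 of 5 at 4 weeks. In the NCAC arm, 1 of 5 livers lay below all Con livers at 8 weeks and 0 of 5 in each earlier week. Above all of them lay 1 CAC liver at 4 weeks and 1 at 8 weeks, and 1 NCAC liver at 4 weeks and 1 at 6 weeks.

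Alpha and beta globin, which pair in a fixed ratio in haemoglobin, kept close to each other whatever the level. The alpha sum divided by the beta sum lay between 0.898 and 1.49 in the 62 libraries, with a median of 1.15, although the alpha sum itself ran from 29.6 to 8616 TPM. The alpha sum was the higher of the pair in 53 of 62 libraries. The median ratio was 1.15 in CAC livers, 1.16 in NCAC livers and 1.12 in Con livers.

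**Figure D2:**
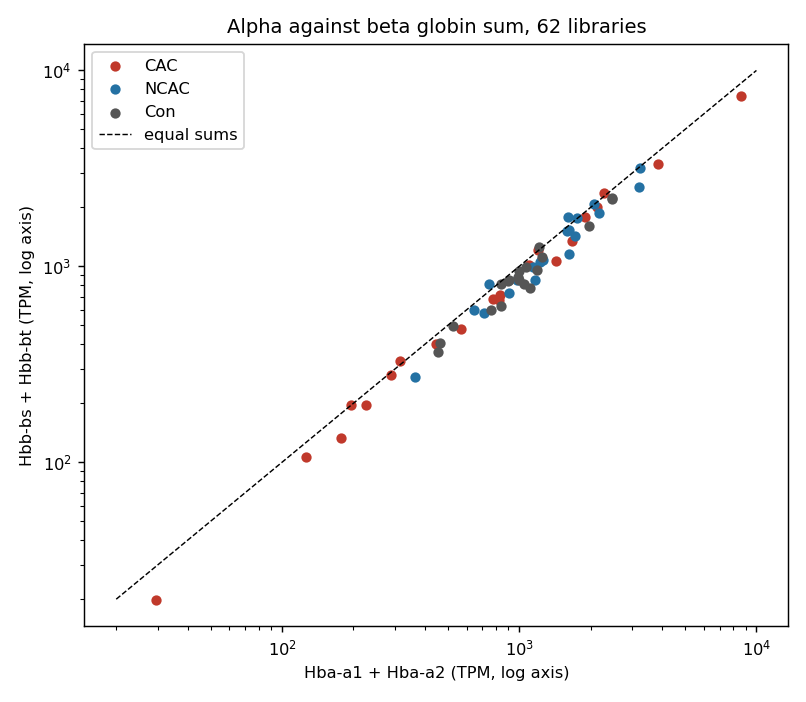
Summed alpha globin (Hba-a1 plus Hba-a2) on the x axis against summed beta globin (Hbb-bs plus Hbb-bt) on the y axis, in TPM on log axes, with 1 point for each of 62 libraries coloured by arm and a dashed line of equal sums. The points follow the line over the whole range, with ratios between 0.898 and 1.49.

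Deviations from the group mean, on the log2(TPM + 1) scale, also ran together over the 62 libraries. Pearson's r was 0.95 between Hba-a1 and Hbb-bs, 0.91 between Hbb-bs and Hbb-bt, and 0.77 between Hbb-bs and Alas2. Hba-a2 stood apart from its own partner, with r = 0.36 against Hba-a1. These r describe libraries that share 1 table, its depths and its read division, and carry no test.

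The share of Hba-a2 in the alpha pair fell into separate ranges rather than spreading evenly. In 32 libraries it was 1.59 to 12.3% of the pair, in 22 it was 34.9 to 45.8%, in 7 it was 54.4 to 60.6%, and 1 library lay between at 23.0%. The ranges were drawn after the shares were seen. All 3 arms were in each of the large ranges: 13 CAC, 9 NCAC and 10 Con livers had shares up to 12.3%, and 7 CAC, 8 NCAC and 7 Con livers had shares of 34.9 to 45.8%. The share of Hbb-bt in the beta pair, by contrast, spread from 2.87 to 22.8% with no such gaps.

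The ranges were not evenly filled over the weeks among mock-injected mice. In Con livers at 2 weeks, Hba-a2 was 32.6, 24.98, 731, 41.3 and 29.5 TPM, and 4 of 5 libraries fell in the lowest range of shares. In Con livers at 8 weeks, Hba-a2 was 288, 871, 929, 401 and 599 TPM, and 0 of 5 did. With the copies summed, the alpha pair at 8 weeks minus that at 2 weeks in Con livers was 0.25 ± 0.73 (SE) on the log2(TPM + 1) scale. Of the 5 members 0 were called between Con livers at 8 and at 2 weeks, where 0.0247% of genes were called lower and 0.271% higher, and 1 had an unadjusted p under 0.05 (limma). The within-group SD on that scale was 2.21 for Hba-a2, 1.20 for Hba-a1 and 1.19 for their sum. Because the coding sequences of the copies differ at 1 base, how the authors' quantification divided reads between them is uncertain, and its part in these shares was not tested.

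**Figure D3:**
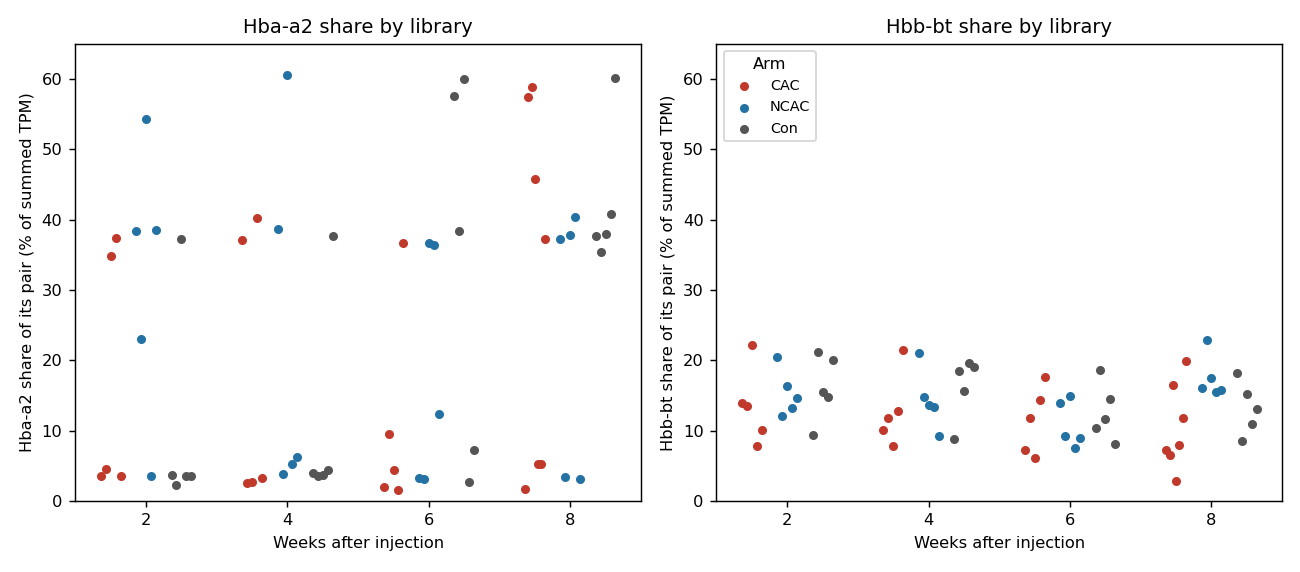
Share of Hba-a2 in the alpha globin pair (left) and of Hbb-bt in the beta globin pair (right), as a percentage of summed TPM on the y axis, against weeks after injection, with 1 point for each library in CAC, NCAC and Con livers. The Hba-a2 shares sit in 3 ranges with medians of 3.54%, 37.7% and 58.9% and 1 library at 23.0%, while the Hbb-bt shares run from 2.87 to 22.8%.

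At 8 weeks, the median of each beta globin copy was lower in CAC than in Con livers. The means were closer, at 1163 TPM in CAC and 1207 TPM in Con livers for Hbb-bs. For Hbb-bt the CAC mean was the higher, at 208 against 172 TPM. Hbb-bs ranged from 19.3 TPM through a median of 182 to 6171 TPM in the 7 CAC livers, against 492, 2053, 1876, 788 and 826 TPM in Con livers. Hbb-bt ranged from 0.571 through 23.2 to 1219 TPM in CAC livers, against 109.5, 191, 336, 97.15 and 125 TPM in Con livers. For Hbb-bt, 6 of 7 CAC livers lay below all Con livers of that week and the remaining one, replicate 3, above all of them. For Hbb-bs, 5 of 7 lay below, 1 within and replicate 3 above.

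Alpha globin showed the same arrangement. Hba-a1 ranged from 16.02 through 185 to 3537 TPM in CAC livers, against 475, 1591, 1521, 583 and 396 TPM in Con livers, with 5 of 7 below and replicate 3 above. Hba-a2 ranged from 2.12 through 62.6 to 5079 TPM in CAC livers, against the Con values given above, with 6 of 7 below and replicate 3 above. Replicate 3 of the CAC group thus held the highest level of all 62 libraries for each of the 4 globin copies, for Alas2 and for Slc4a1.

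A filter of at least 1 TPM in at least 5 libraries left 5 members, all but Slc4a1. Of these, 4 were called lower in CAC than in Con livers at 8 weeks, where 35.3% of all 12160 tested genes were called lower and 5.87% higher (limma, Benjamini-Hochberg adjusted p under 0.05). On the log2(TPM + 1) scale the differences were -2.19 ± 0.75 (SE) for Hbb-bt (adjusted p = 0.0166), -1.85 ± 0.70 for Hbb-bs (adjusted p = 0.0283), -3.13 ± 1.26 for Hba-a2 (adjusted p = 0.0403) and -1.64 ± 0.68 for Hba-a1 (adjusted p = 0.0486). The median difference of all genes was -0.21. Each SE rests on 1 spread for each gene shared by all 12 groups, whereas these CAC livers spread more than the Con livers. The SD of Hbb-bt on that scale was 3.08 in CAC and 0.73 in Con livers of that week. With the copies of a pair summed, the difference was -1.86 ± 0.67 for alpha and -1.90 ± 0.70 for beta globin. NCAC minus Con at 8 weeks was -1.73 ± 1.36 for Hba-a2 and -0.25 to 0.27 for the other tested members, with no call.

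The count turned on single libraries and on how the spread was estimated. Without CAC replicate 3 all 5 members were called lower, against 39.9% of genes in that fit, and the differences were -3.06 ± 0.63 for Hbb-bt, -2.59 ± 0.61 for Hbb-bs, -4.18 ± 1.18 for Hba-a2, -2.28 ± 0.62 for Hba-a1 and -1.28 ± 0.36 for Alas2 (limma, adjusted p between 9.02e-05 and 0.00313). It was 0 of 5 without CAC replicate 1, CAC replicate 4 or Con replicate 3, 1 of 5 without CAC replicate 6 or Con replicate 2, and 2 of 5 without CAC replicate 2 or Con replicate 4. It was also 0 of 5 in a fit of the week 8 libraries alone and 0 of 5 without the 12 libraries that held over 100 TPM of pancreatic Ctrb1 or over 10 TPM of muscle Acta1, 2 of them Con livers at 8 weeks. After median-of-ratios rescaling, which takes out the shift of the median gene, 1 of 5 was called lower, where 13.9% of genes were called lower and 12.8% higher, and with no filter on low values 2 of 5 were. With a group-specific spread, added after seeing the data, 1 of 5 was called lower. All differences stayed below 0 in these fits. Where no share of all genes is given beside a count, a general loss of calls cannot be told from a change in the members.

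Markers of other cells differed between the same groups. At 8 weeks the 10 markers of B and plasma cells summed to 78.5 to 268 TPM in CAC livers, against 223 to 2509 TPM in Con livers, and the 10 of Kupffer cells and macrophages to 146 to 569 TPM, against 431 to 553 TPM. Con replicates 2 and 4, which also held the most pancreatic transcripts of their group, had B and plasma cell sums of 2509 and 1585 TPM. Con replicates 1, 3 and 5 had 281, 223 and 443 TPM, so that range overlaps the CAC one. The 8 platelet markers summed to 11.2 to 19.4 TPM in CAC livers, against 4.61 to 8.11 TPM in Con livers, and the 12 pancreatic markers to 4.03 to 14.9 TPM, with 6 of them at 0 in all CAC livers, against 18.2 to 6548 TPM. None of the blood cell markers was at 0 in all CAC livers, and their part in the globin differences was not tested.

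**Figure D4:**
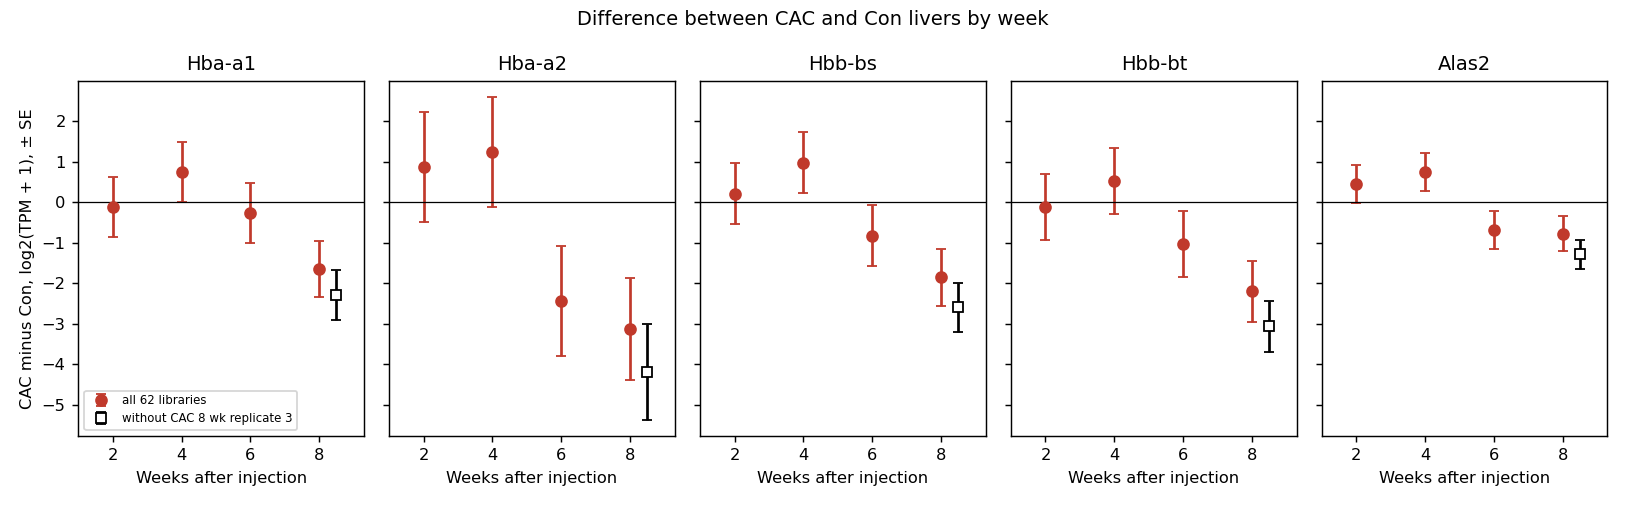
Difference between CAC and Con livers (log2 of TPM + 1, CAC minus Con, ± SE) for the 5 tested members against weeks after injection, from all 62 libraries (filled circles) and, at 8 weeks, without CAC replicate 3 (open squares). The 8-week differences run from -3.13 to -0.77 with all libraries and from -4.18 to -1.28 without that one.

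Alas2 had the smallest of the 5 differences from Con livers. At 8 weeks it ranged from 1.89 through 4.94 to 65.05 TPM in CAC livers, against 9.76, 14.4, 18.6, 10.3 and 12.8 TPM in Con livers, with 5 of 7 CAC livers below all Con livers and replicate 3 above. Its difference was -0.77 ± 0.43 on the log2(TPM + 1) scale (limma, adjusted p = 0.147) and was not called.

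Slc4a1 lay under the filter and was not tested. In CAC livers at 8 weeks it was listed at 0 in replicates 1, 4 and 6, at 0.0104 TPM in replicate 2, 1.97 TPM in replicate 3, 0.112 TPM in replicate 5 and 0.0413 TPM in replicate 7. In NCAC livers it was 0.231, 0.238, 0, 0.310 and 0.268 TPM, and in Con livers 0.0322, 0.194, 0.149, 0.0614 and 0.0106 TPM. Over all groups it was listed at 0 in 5 libraries, 4 of them CAC.

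The CAC livers set against NCAC livers at 8 weeks gave 2 of 5 members called lower, where 43.1% of genes were called lower and 5.09% higher. Hbb-bt was 283, 195, 47.3, 291 and 282 TPM in NCAC livers and differed by -2.46 ± 0.75 on the log2(TPM + 1) scale, CAC minus NCAC (limma, adjusted p = 0.00641). Hba-a1 was 1101.5, 942, 227, 1297 and 1555 TPM in NCAC livers and differed by -1.81 ± 0.68 (adjusted p = 0.0254). NCAC replicate 3 was the lowest of its group for both. Hbb-bs was 1480.4, 659, 224, 1587 and 1505 TPM in NCAC livers. Hbb-bs (-1.60 ± 0.70, adjusted p = 0.0514), Hba-a2 (-1.40 ± 1.26, adjusted p = 0.358) and Alas2 (-0.85 ± 0.43, adjusted p = 0.0997) were not called. This comparison shares its CAC livers with the one against Con.

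The 8-week count against NCAC livers ran from 1 to 4 as single libraries were left out. It was 4 of 5 without CAC replicate 3, where 46.6% of genes were called lower, and 4 of 5 without NCAC replicate 3, where 39.4% were. It was 1 of 5 without CAC replicates 1, 2 or 4 or NCAC replicates 1, 4 or 5. It was 0 of 5 in a fit of the week 8 libraries alone and without the 12 libraries with pancreatic or muscle transcripts. The share of all genes called is not given for the fits with 0 or 1 member called.

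At 6 weeks the gap between the tumour arms had the same sign but no member was called. Hbb-bs was 259, 1189, 307, 114 and 552 TPM in CAC livers, against 1301, 2891, 1222.5, 1918 and 739 TPM in NCAC livers and 444, 297, 984, 696 and 1147 TPM in Con livers. Alas2 was 4.32, 13.3, 3.77, 3.83 and 8.90 TPM in CAC livers, against 12.75, 24.4, 21.6, 21.6 and 9.003 TPM in NCAC livers and 9.05, 8.33, 12.9, 9.86 and 12.02 TPM in Con livers. For both genes, CAC replicates 1, 3, 4 and 5 lay below all NCAC livers, although replicate 5 by little for Alas2, and replicate 2 lay within the range of NCAC livers. Replicates 1, 3 and 4 were the lowest CAC livers for both genes, and replicate 5 lay within the range of Con livers.

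CAC minus NCAC at 6 weeks was -2.02 ± 0.75 for Hbb-bs (limma, adjusted p = 0.0694), -1.34 ± 0.47 for Alas2 (adjusted p = 0.0505), -1.97 ± 0.81 for Hbb-bt (adjusted p = 0.112), -1.71 ± 0.74 for Hba-a1 (adjusted p = 0.13) and -2.74 ± 1.36 for Hba-a2 (adjusted p = 0.204). None of 5 members was called, where 5.54% of genes were called lower and 6.55% higher, and all 5 had an unadjusted p under 0.05. All weeks share 1 estimate of spread, and without the 8-week CAC replicate 3 in the fit 3 of 5 were called lower, against 6.42% of genes: Alas2 (adjusted p = 0.0105), Hbb-bs (0.0241) and Hbb-bt (0.0373). Without CAC replicate 2 of week 6 the count was 2 of 5, and without CAC replicate 5 or NCAC replicate 5 it was 1 of 5. No share of all genes is given for these last fits.

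CAC minus Con at 6 weeks was also below 0 for each tested member, with no call. The differences were -2.44 ± 1.36 for Hba-a2, -1.02 ± 0.81 for Hbb-bt, -0.82 ± 0.75 for Hbb-bs, -0.68 ± 0.47 for Alas2 and -0.26 ± 0.74 for Hba-a1, and the lowest adjusted p by limma was 0.201. None of 5 was called or had an unadjusted p under 0.05, where 10.3% of genes were called lower and 5% higher. NCAC minus Con at 6 weeks had the opposite sign, with 1.46 ± 0.74 for Hba-a1, 1.19 ± 0.75 for Hbb-bs, 0.95 ± 0.81 for Hbb-bt, 0.66 ± 0.47 for Alas2 and 0.30 ± 1.36 for Hba-a2, and again none of 5 was called (lowest adjusted p = 0.554), where 0% of genes were called in either direction.

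At 4 weeks the median of each tested member was higher in CAC than in Con livers. Hba-a1 was 2423, 1847, 2065, 463 and 803 TPM in CAC livers, against 1027, 447.5, 962, 866.5 and 655 TPM in Con livers. Alas2 was 37.9, 11.3, 28.9, 9.43 and 26.6 TPM in CAC livers, against 12.3, 14.3, 9.62, 11.4 and 10.4 TPM in Con livers. For each gene 3 of 5 CAC livers lay above all Con livers of that week, and for Alas2 1 lay below. CAC minus Con was 0.75 ± 0.74 for Hba-a1, 0.98 ± 0.75 for Hbb-bs, 0.53 ± 0.81 for Hbb-bt, 1.24 ± 1.36 for Hba-a2 and 0.75 ± 0.47 for Alas2, none of them called by limma (lowest adjusted p = 0.523), where 1.3% of genes were called higher and 0.609% lower. NCAC minus Con at 4 weeks was also above 0 for each tested member, from 0.42 ± 0.47 for Alas2 to 1.74 ± 1.36 for Hba-a2. CAC minus NCAC ran from -0.51 ± 1.36 for Hba-a2 to 0.33 ± 0.47 for Alas2.

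At 2 weeks the arms overlapped. Hbb-bs was 348, 875, 833, 1003 and 2118 TPM in CAC livers, against 919, 508, 883, 520.1 and 921 TPM in NCAC livers and 759.9, 610.2, 1364, 816 and 504 TPM in Con livers. CAC minus Con ran from -0.13 ± 0.81 for Hbb-bt to 0.86 ± 1.36 for Hba-a2, and none of 5 members was called, where 0.00822% of genes were called higher and 0% lower (limma). None of 5 was called in NCAC against Con at 2, 4 or 8 weeks, where 0%, 0% and 0.156% of genes were called lower and 0%, 0% and 0.0247% higher, nor in CAC against NCAC at 2 or 4 weeks, where 0% and 0.156% were called lower and 0% and 1.11% higher. In none of those comparisons did a member have an unadjusted p under 0.05.

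Over the 4 time points, the trend of CAC minus Con was negative in each tested member and passed no test with all libraries. The change for each step of 2 weeks was -1.57 ± 0.59 for Hba-a2, -0.80 ± 0.32 for Hbb-bs, -0.78 ± 0.35 for Hbb-bt, -0.56 ± 0.32 for Hba-a1 and -0.51 ± 0.20 for Alas2, with adjusted p between 0.0587 and 0.243 (limma). None of 5 was called, where 12.3% of genes had a declining and 3.35% a rising trend called, and 4 of 5 had an unadjusted p under 0.05. Without CAC replicate 3 of week 8 all 5 were called, against 18.3% of genes in that fit. The count was 1 of 5 without CAC replicate 1 or Con replicate 3 of week 2, Con replicate 5 of week 4, CAC replicates 2 or 5 or Con replicate 4 of week 6, or CAC replicate 5 of week 8. The share of all genes called is not given for those fits. NCAC minus Con changed by -1.26 ± 0.61 for Hba-a2 for each step (limma, adjusted p = 0.479). The other tested members changed by -0.0007 to 0.32, and none of 5 was called, where 0% of genes were. Hba-a2 itself was higher in Con livers at 8 than at 2 weeks, by 3.21 ± 1.36 (adjusted p = 0.361). With the copies summed, the CAC slope of alpha globin was -0.72 ± 0.31 (adjusted p = 0.109).

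The test that CAC minus Con differs among weeks in any pattern called 0 of 5 members, where 9.51% of genes were called, with 3 of 5 at an unadjusted p under 0.05 (limma). It called 4 of 5 without CAC replicate 3 of week 8, against 19.1% of genes in that fit.

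That library was set beside the other 6 CAC livers at 8 weeks over wider lists of erythroid genes. Its summed globin level, 16006 TPM, was 2.23 times that of the next highest of the 62 libraries, while the other 6 CAC livers spanned 49.45 to 2401 TPM. 
Of 18 genes of the red cell membrane and skeleton, 15 were highest in that library among the 7 CAC livers and 7 were highest among all 62, although their sum, 48.5 TPM, lay within the 46.4 to 76.3 TPM of the other 6. Of 11 erythroid transcription factors 6 were highest among the 7 and 3 among all 62, of 12 genes of late red cell maturation 7 and 3, and of 12 genes of haem synthesis and erythroid iron uptake 4 and 0. Klf1, Tal1, Nfe2, Sox6 and Bcl11a were the transcription factors not highest in it. Hemgn, a regulator of erythroid differentiation named after its values were seen, was at 0.629 TPM in it and listed at 0 in the other 6. Most of the membrane genes lay under 1 TPM, and the share of all genes highest in this library is not given. The library was picked out for its high member values, so the erythroid counts describe it and are no separate support. Markers of other cells also differed in it. Of 10 neutrophil markers 8 were highest among the 7 and 4 among all 62, and of 10 Kupffer cell and macrophage markers 9 and 1. Of 10 B and plasma cell markers these counts were 6 and 0, and of 8 platelet and megakaryocyte markers 3 and 1. The 10 neutrophil markers summed to 82.8 TPM, against 9.98 to 22.2 TPM in the other 6, none of them at 0 throughout the group, and the 10 markers of Kupffer cells and macrophages to 569 TPM, against 146 to 359 TPM. The 10 markers of B and plasma cells summed to 268 TPM, against 78.5 to 256 TPM. The 8 platelet and megakaryocyte markers were lower, at 11.2 TPM, against 13.1 to 19.4 TPM. Hamp, the hepatocyte hormone hepcidin that limits iron release, was 8.49 TPM in it, against 1005 to 4143 TPM. Their part in the globin values was not tested.

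Genes with related roles were read from lists of the pathway. Of the 12 genes of haem synthesis and erythroid iron uptake, all tested, 8 were lower and 0 higher in CAC than in Con livers at 8 weeks, where 35.3% of all tested genes were lower and 5.87% higher. Their median difference was -0.40, against -0.21 over all genes. Alad, the second enzyme of the pathway and highly expressed in hepatocytes, averaged 121.5 ± 52.15 TPM (SD, n = 7) in CAC livers and 314 ± 56.9 TPM (n = 5) in Con livers, a log2 difference of -1.49 ± 0.20 (SE, limma adjusted p = 9.56e-08). Urod, a later enzyme, differed by -0.55 ± 0.11 (adjusted p = 7.9e-05). Most enzymes on this list are used by hepatocytes as well as by red cell precursors. After rescaling the libraries by median of ratios, which removes the -0.21 shift, 2 of 12 were called lower, against 13.9% of all genes.

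Of 13 genes of late red cell maturation, 12 were in the table and 11 tested, with 2 lower, 2 higher and a median difference of -0.20, beside the same 35.3% and 5.87% of all genes. Without CAC replicate 3, 5 of 11 were lower and 2 higher, where 39.9% of all genes were lower and 6.57% higher. Fech, the last enzyme of haem synthesis, stands on this list and on the one before. Car1, the carbonic anhydrase abundant in red cells, was lower in CAC livers without overlap: 0.0409 to 3.76 TPM in the 7 CAC livers, against 6.83 to 11.9 TPM in NCAC and 5.93 to 8.74 TPM in Con livers at 8 weeks. Its difference from Con was -2.22 ± 0.26 (limma, adjusted p = 1.65e-09) at 8 weeks and -2.10 ± 0.28 (adjusted p = 9.62e-08) at 6 weeks. In the library with the highest globin level Car1 was 3.76 TPM, the highest of the 7 but still below all Con livers. Fam210b, a mitochondrial protein of erythroid cells, was higher by 0.45 ± 0.13 (adjusted p = 0.00402). It ran from 37.5 to 90.4 TPM over all libraries. In the library with the highest globin level it was 46.2 TPM, against 49.8 to 90.4 TPM in the other 6 CAC livers. Which cells it came from was not tested.

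Among 18 membrane and skeleton genes 3 were tested, of which 2 were lower and 1 higher at 8 weeks, against 35.3% and 5.87% of all genes. Xk, which encodes the carrier of the Kx blood group antigen, differed by -0.40 ± 0.14 (limma, adjusted p = 0.0197), and Epb41, the skeletal protein 4.1, by 0.58 ± 0.21 (adjusted p = 0.0226). After median-of-ratios rescaling 0 were lower and 1 higher, where 13.9% of all genes were lower and 12.8% higher. Of 11 erythroid transcription factors 4 were tested and 1 was lower, again against 35.3% of all genes: Zfpm1, the cofactor of Gata1 also known as FOG1, at -0.94 ± 0.23 (adjusted p = 0.00116). Zfpm1 ran from 7.21 to 43.0 TPM over all libraries, where Gata1 had a median of 0 TPM, and which cells it came from was not tested. Nfe2 differed by -0.41 ± 0.27 (adjusted p = 0.227). Epor, the erythropoietin receptor and the 1 gene tested of 3 measured on the erythropoietin axis, was lower at -0.71 ± 0.13 (adjusted p = 3.85e-05), as were 35.3% of all genes, while Epo itself was listed at 0 in all 62 libraries. None of the 7 embryonic and other globin genes in the table was tested, and 5 of them were listed at 0 in all 62 libraries.

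The pathway lists gave few calls before that. At 6 weeks, CAC against Con had 4 of 12 haem genes, 2 of 11 maturation genes and 1 of 3 membrane genes lower, against 10.3% of all genes, and none higher. At 4 weeks none of these lists had a call in either direction.

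Among the genes whose deviations were most like the mean of the 5 tested members over the 62 libraries were Isg20, an exonuclease (Pearson's r = 0.76, Spearman's rho 0.69), Cdr2 (0.70, 0.67), Marcksl1 (0.70, 0.56) and Bpgm, the enzyme that makes 2,3-bisphosphoglycerate in red cells (0.69, 0.55). Without the 2 libraries farthest from the median of the members' mean, CAC replicates 3 and 4 at 8 weeks, r was 0.69 for Isg20, 0.61 for Cdr2, 0.57 for Marcksl1 and 0.59 for Bpgm. These r were computed within the same libraries, with no test.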

How the data were processed

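RNA of 62 mouse livers was sequenced as stranded mRNA libraries, per the labels' protocols. The authors deposited TPM values per gene symbol, with mm10 as the genome build per the submitters' processing notes; aligner and quantification tool: not given in the sources used here. TPM keeps no read depth, so no counting interval is given.

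Groups were arm by week from the labels, and 0 columns were left unmapped. The 12160 genes that reached 1 TPM in 5 or more libraries entered the test on log2(TPM + 1), a scale that understates the change of low genes, with limma 3.58.1 (trended empirical Bayes) in R 4.3.3, in 1 fit of 12 groups with Benjamini-Hochberg adjustment at 0.05. Python 3.11.15, pandas 2.3.3, NumPy 2.4.6 and matplotlib 3.10.9 were used otherwise, and the fit was checked on simulated data. P-values set differences between group means against the spread of libraries within groups, which the 12 groups share for each gene.

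All members are named, with the 2 genes of smallest p in each pathway list and the 5 genes most like the members; genes whose role needs it were added. The members and lists were chosen with earlier results of these data known. A further member symbol and some genes that these rules name are not reported here. Alternatives were another pseudocount, no filter, median-of-ratios rescaling, single-week fits, summed copies, libraries left out and a replicate block; a group-specific spread and the 6-week fit without 1 library were added after seeing the data.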

Additional observations from a re-analysis of the deposited data

Results flagged for a closer look

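Among 72 combinations of member and group, 7 held a library whose gap to its nearest neighbour was large for the range of its group. Chance would give about 1 in 20 if the combinations were separate. They were not, since members ran together within libraries, so no excess over chance is read from this count. NCAC replicate 3 at 8 weeks was far below the rest of its group with 227 TPM of Hba-a1, 47.3 TPM of Hbb-bt and Slc4a1 listed at 0. CAC replicate 3 at 8 weeks stood far above its group with 1.97 TPM of Slc4a1. Hba-a2 was 731 TPM in Con replicate 3 at 2 weeks, where the other 4 libraries had 24.98 to 41.3 TPM. Alas2 was 31.9 TPM in NCAC replicate 5 at 4 weeks, and Slc4a1 was 0.127 TPM in Con replicate 2 at 2 weeks.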

How the results depend on the processing

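The 4 members called lower in CAC against Con livers at 8 weeks became 2 with no filter on low values, 1 after median-of-ratios rescaling, 1 with a group-specific spread, 0 in a fit of that week alone and 0 without the libraries holding pancreatic or muscle transcripts; leaving out 1 library gave 0 to 5. The 2 members lower in CAC against NCAC livers at 8 weeks became 1 after median-of-ratios rescaling. That count was 0 in the single-week fit and without the pancreatic or muscle libraries, and 1 to 4 with 1 library left out. With the copies summed, the alpha and the beta pair were each called lower in that comparison (limma, adjusted p = 0.0384 and 0.0365). The 0 members lower in CAC against NCAC livers at 6 weeks became 1 with a pseudocount of 0.1, 1 after median-of-ratios rescaling, 3 in the single-week fit and 4 with a group-specific spread, and 0 to 3 with 1 library left out. The declining CAC trend ran from 0 to 5 members and the test among weeks from 0 to 4. For fits given without a share of all genes called, it is not known whether a changed count was particular to the members. With the replicate block, 1 member was lower in CAC against Con livers at 8 weeks, and no other count moved by over 1.5 times; same-numbered libraries did not deviate together (r from -0.37 to 0.36 over 65 pairs, 12 of them over 0.1), so the numbers were not taken as pairing. On the log2 scale, signs turned for small differences: CAC minus Con at 2 weeks became 0.012 for Hba-a1 and 0.17 for Hbb-bt with the copies summed, and 0.35 and 0.48 without the pancreatic or muscle libraries. Without those libraries Hba-a1 became 0.51 in CAC minus Con and Hba-a2 -0.87 in NCAC minus Con at 6 weeks. With 1 library left out the ranges were -0.42 to 0.17 for Hba-a1, -0.11 to 0.55 for Hbb-bs and -0.34 to 0.17 for Hbb-bt in CAC minus Con at 2 weeks, -0.73 to 0.047 for Hba-a1 in CAC minus Con at 6 weeks, and -0.38 to 0.87 for Hba-a2 in NCAC minus Con at 6 weeks. The cause was not tested. Slc4a1 and most membrane genes lay under 1 TPM, where TPM with unknown depth cannot show a difference.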

Other observations

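Alas2 did not scale with globin in every liver. Alas2 per 1000 TPM of summed globin had a median of 6.28 over the 62 libraries and ranged from 2.56 to 67.2. The highest value was in CAC replicate 4 at 8 weeks, the library with the least globin, followed by 34.5 in CAC replicate 1 at 2 weeks and 17.3 in CAC replicate 5 at 4 weeks.

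The theta globin genes, Hbq1a and Hbq1b, were detected at low level in a globin set that was otherwise listed at 0. Hbq1a was above 0 in 26 libraries, up to 0.479 TPM, and Hbq1b in 38 libraries, up to 0.576 TPM, with its highest value in CAC replicate 3 at 8 weeks. Trak2, a mitochondrial transport adaptor, was higher in CAC than in Con livers at 8 weeks by 0.40 ± 0.15 on the log2(TPM + 1) scale (SE, limma adjusted p = 0.0309), while Klf1, a main activator of adult beta globin, differed by -0.00 ± 0.41 (adjusted p = 0.997). Klf1 had a median of 5.38 TPM over all libraries, where Gata1 had a median of 0 TPM. Which cells Klf1 came from was not tested.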
